A study of Mus musculus with 6 samples.

Results

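The integrin subunit genes Itga3, Itga6, Itga4, Itgb2, Itgb7 and Itgb8 were followed in RNA given as that of the mouse cervical carcinoma cell line U14. They were taken by symbol from the table the authors deposited, where all 6 were found among 1722 listed genes, and they were chosen to set subunits that bind laminin on epithelial cells against subunits of leukocytes. The series compares 3 libraries of wild-type U14 cells (labelled WT) with 3 libraries of U14 cells labelled OEFOXP1 that overexpress FOXP1, a forkhead transcription factor. RNA was total RNA from which polyadenylated mRNA was captured, sequenced as paired ends. No age, dose or time is given, nor the vector, the promoter, the number of clones or whether separate cultures were used within a group, so that p-values measure the spread between these libraries, which may be technical.

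Integrins are receptors made of 1 alpha and 1 beta chain, each crossing the plasma membrane, that hold cells to matrix proteins or to other cells and signal in both directions. The chains Itga3 and Itga6 bind laminins of the basement membrane and are typical of epithelial cells, whereas Itgb2 and Itgb7 are made chiefly by leukocytes, which use them to adhere to vessel walls and to other cells. Itga4 pairs with Itgb7 or with the broadly expressed Itgb1. Itgb8 pairs with Itgav and is known for releasing active TGF-beta from its latent complex.

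The table holds only genes that differed by the authors' own test, with a q below 0.05 and a change of 2-fold or more, so each of the 6 genes had to differ to be in it. The number of genes the authors tested was inferred as 15689, from their q divided by their p at the smallest p. Of these, 9.59% are listed as higher and 1.38% as lower with FOXP1 overexpression. Itga3 and Itga6 are listed as lower and Itga4, Itgb2, Itgb7 and Itgb8 as higher. The values per library are FPKM, fragment counts scaled by the length of the gene and by the size of the library. Behind them stood 16824351 to 20410060 fragments per library. The overexpression libraries carry the numbers 2, 3 and 4 in the table, and number 4 is in no sample label. The labels could not be checked against the level of Foxp1, which was not analysed here. The epithelial keratin gene Krt18 was abundant in every library, at 322 to 394 FPKM in wild type and 131 to 172 FPKM with FOXP1 overexpression. The leukocyte phosphatase gene Ptprc was present in every library too, at 21.2 to 35.8 FPKM in wild type and 58.0 to 75.3 FPKM with FOXP1 overexpression. Genes typical of other cells were read in every wild-type library as well. The macrophage gene Lyz2 stood at 947 to 1484 FPKM there, the fibroblast gene Dcn at 76.4 to 85.9 and the T cell gene Cd3g at 11.5 to 19.3. Which cells made the integrin RNA was not tested, so a level here cannot be assigned to carcinoma cells. In a bulk library, fewer cells of a type and less RNA per cell cannot be told apart.

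**Figure D1:**
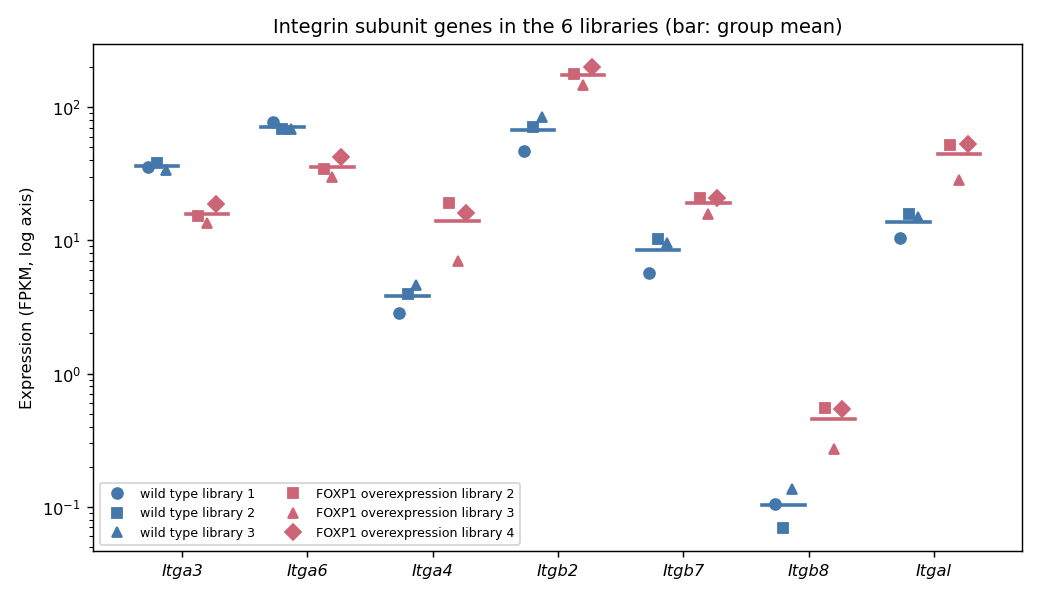
Expression of the 6 integrin subunit genes and of Itgal in each of the 6 libraries, in FPKM on a log axis, with wild type in blue, FOXP1 overexpression in red, a marker for each library number and a bar at each group mean. In each gene the groups stand apart, with Itga3 and Itga6 lower and the other 5 higher with FOXP1 overexpression.

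Both laminin-binding chains fell with FOXP1 overexpression, the wild-type mean being 2.26 times the overexpression mean for Itga3 and 2.01 times for Itga6. Itga3 (Entrez 16400), the alpha chain of the laminin receptor alpha3 beta1, read 35.8, 37.8 and 33.9 FPKM in wild-type libraries 1, 2 and 3, compared with 15.3, 13.4 and 18.9 FPKM in overexpression libraries 2, 3 and 4. The highest overexpression library lay well below the lowest wild-type library, with means of 35.8 ± 1.98 and 15.9 ± 2.76 FPKM (SD, n = 3 each). On the log2(FPKM + 1) scale the difference was -1.14 (SE 0.20, 95% confidence interval -1.60 to -0.67), with a Benjamini-Hochberg adjusted p of 0.0031 by limma over the listed genes. The authors' deposited table gives a log2 fold of -1.24 and a q of 2.4e-14. The FPKM rest on 3208 to 3717 fragments per library in wild type and 1358 to 1762 with FOXP1 overexpression.

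Itga6 (Entrez 16403), the alpha chain of laminin receptors with Itgb1 or, in hemidesmosomes, Itgb4, read 77.5, 68.1 and 68.6 FPKM in wild-type libraries 1, 2 and 3. In overexpression libraries 2, 3 and 4 it read 34.6, 29.7 and 42.4 FPKM, and the groups did not overlap. Its mean fell from 71.4 ± 5.32 to 35.5 ± 6.40 FPKM (SD, n = 3 each). The limma difference was -0.999 on the log2(FPKM + 1) scale (SE 0.21, interval -1.47 to -0.52, adjusted p of 0.0040), and the authors' deposited table gives a log2 fold of -1.08. Without overexpression library 3, the log2 fold in voom, limma's method for counts, on counts rebuilt from the FPKM was -0.97, under the authors' fold of 2.

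Both chains varied little among wild-type libraries, with a coefficient of variation of 5.52% for Itga3 and 7.44% for Itga6, and more with FOXP1 overexpression, at 17.4% and 18.0%. The ratio of Itga6 to Itga3 in FPKM was 2.17, 1.80 and 2.02 in the wild-type libraries and 2.25, 2.21 and 2.25 in the overexpression libraries. Among the 217 genes listed as lower, Itga6 stood in place 23 by wild-type FPKM and Itga3 in place 42. By size of the authors' log2 fold they stood in places 153 and 93, against a median of -1.20 over these 217 genes.

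The shared chain of the leukocyte integrins was the most abundant of the genes that rose. Itgb2 (Entrez 16414), which pairs with Itgal, Itgam, Itgax and Itgad, read 46.7, 70.5 and 83.5 FPKM in wild-type libraries 1, 2 and 3, compared with 175.8, 146.8 and 199.8 FPKM in overexpression libraries 2, 3 and 4. Every overexpression library was above every wild-type one, and wild-type library 1 was the lowest of all. The means were 66.9 ± 18.7 and 174 ± 26.5 FPKM (SD, n = 3 each), a limma difference of 1.40 on the log2(FPKM + 1) scale (SE 0.26, interval 0.79 to 2.00, adjusted p of 0.0034). With the median of the listed genes, which lay 0.81 higher with FOXP1 overexpression, subtracted from every library, the difference was 0.59 and no longer passed (limma adjusted p of 0.079). The authors' deposited table gives it a log2 fold of 1.32, below the median of 1.46 over the 1505 genes listed as higher.

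Itgal (Entrez 16408), the alpha chain that forms LFA-1 with Itgb2, is not one of the 6 genes but is the only other integrin gene in the table. It read 10.5, 15.7 and 15 FPKM in wild-type libraries 1, 2 and 3, compared with 51.9, 28.5 and 53.2 FPKM in overexpression libraries 2, 3 and 4. It rose with a limma difference of 1.60 (SE 0.29, adjusted p of 0.0033). The ratio of Itgal to Itgb2 was 0.224, 0.223 and 0.179 in the wild-type libraries and 0.295, 0.194 and 0.266 in the overexpression libraries, so the groups overlapped.

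Itgb7 (Entrez 16421), the beta chain of the gut-homing receptor alpha4 beta7 and of alphaE beta7, read 5.71, 10.2 and 9.58 FPKM in wild-type libraries 1, 2 and 3. In overexpression libraries 2, 3 and 4 its level was 20.9, 15.7 and 20.7 FPKM, again with no overlap of the groups. The mean rose from 8.50 ± 2.44 to 19.1 ± 2.98 FPKM (SD, n = 3 each), with a limma difference of 1.10 on the log2(FPKM + 1) scale (SE 0.26, interval 0.51 to 1.70, adjusted p of 0.0053). With the median of the listed genes subtracted from every library, the difference was 0.30 (limma adjusted p of 0.325). It was the smallest log2 fold of the 4 genes that rose, 1.10 in the authors' deposited table. Without wild-type library 1 its log2 fold in voom was 0.87, under the authors' fold of 2.

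Itga4 (Entrez 16401), the alpha chain of VLA-4 and of alpha4 beta7, read 2.86, 3.94 and 4.61 FPKM in wild-type libraries 1, 2 and 3, compared with 19.0, 6.97 and 16.0 FPKM in overexpression libraries 2, 3 and 4. Overexpression library 3 was much nearer to wild type than the other two. The mean rose from 3.80 ± 0.883 to 14 ± 6.27 FPKM (SD, n = 3 each), with a limma difference of 1.56 (SE 0.35, interval 0.74 to 2.37, adjusted p of 0.0050). After the subtraction of library medians it was 0.75 (limma adjusted p of 0.102). The log2 fold was 1.82 in the authors' deposited table, and in voom it was 2.15 without overexpression library 3 and 1.41 without library 2. The length behind the FPKM, rebuilt from the table, was 13214 bases for Itga4 and 2914 bases for Itgb2, so that their levels relative to each other depend on that choice of length.

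Itgb8 (Entrez 320910) was the rarest of the genes, with 15, 10 and 19 fragments in the wild-type libraries and 71, 43 and 74 in those with FOXP1 overexpression, in the order of their numbers. In FPKM these are 0.104, 0.0694 and 0.137 against 0.547, 0.273 and 0.541, again without overlap. It had the largest log2 fold of the 6 genes in the authors' deposited table, 2.07 with a q of 4.2e-04, and 2.01 in voom (SE 0.47, interval 0.95 to 3.06, adjusted p of 0.0045). On the log2(FPKM + 1) scale, which understates a change at such low levels, the limma difference was 0.39 (SE 0.09, adjusted p of 0.0057). With a pseudocount of 0.1 it was 1.41. After the subtraction of library medians it turned to -0.42 (limma adjusted p of 0.011). That sign follows from the scale, because the 0.81 subtracted exceeds the 0.39 that Itgb8 shows at its low level. The authors' log2 fold of Itgb8, 2.07, is above the median of 1.46 over the genes listed as higher.

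By limma all 6 genes had an adjusted p under 0.05, as did 94.6% of the 1722 listed genes, which had been selected for a difference (82.3% called higher and 12.3% called lower). The groups did not overlap in any of the 6, nor in 93.0% of the listed genes. Both counts are close to the background and say nothing particular about the integrins. Taken from the authors' deposited table, the log2 folds had a median of 1.57 over the 4 genes that rose and of -1.16 over the 2 that fell, against 1.46 and -1.20 over all listed genes of each direction.

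**Figure D2:**
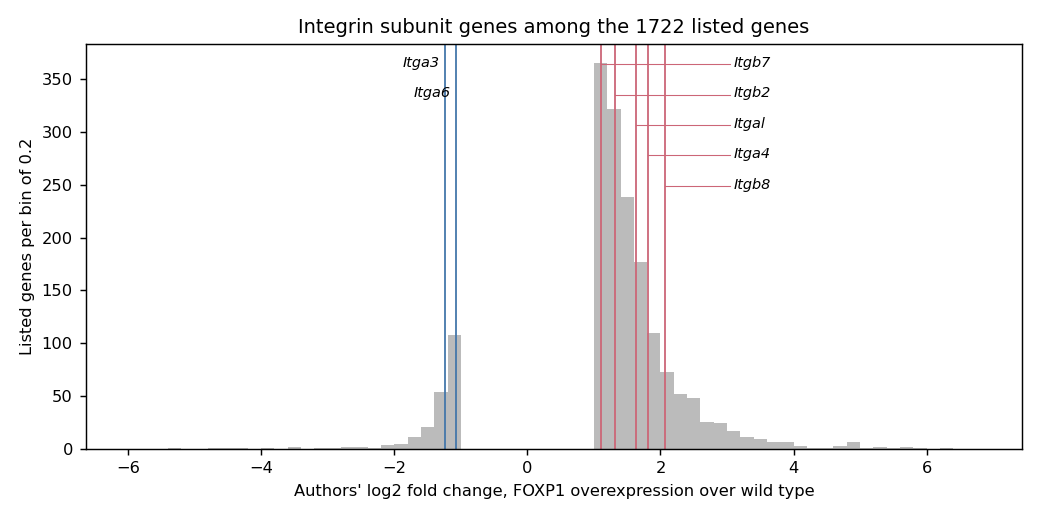
Number of listed genes in bins of the log2 fold change from the authors' deposited table, FOXP1 overexpression over wild type, with lines at the 6 integrin subunit genes and Itgal. Itga3 and Itga6 lie at -1.24 and -1.08 among the genes that fell, and the others at 1.10 to 2.07 among the far more numerous genes that rose.

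Among the 1505 genes listed as higher, Itgb2 stood in place 32 by its FPKM with FOXP1 overexpression, Itgb7 in place 256, Itga4 in place 319 and Itgb8 in place 1350. By size of the authors' log2 fold Itgb8 stood in place 270 of them, Itga4 in place 394, Itgb2 in place 957 and Itgb7 in place 1310.

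The order of the levels of the 6 genes changed with the group. In wild type it ran from Itga6 (71.4 FPKM) and Itgb2 (66.9 FPKM), whose ranges overlapped, through Itga3 (35.8 FPKM), Itgb7 (8.50 FPKM) and Itga4 (3.80 FPKM) to Itgb8 (0.104 FPKM). With FOXP1 overexpression Itgb2 led at 174 FPKM, followed by Itga6 at 35.5, Itgb7 at 19.1, Itga3 at 15.9, Itga4 at 14 and Itgb8 at 0.454 FPKM. There the ranges of Itgb7 and Itga3 overlapped, and those of Itga3 and Itga4, while all other neighbours stood apart. The summed FPKM of Itga3 and Itga6 divided by that of Itga4, Itgb2 and Itgb7 was 2.05, 1.25 and 1.05 in wild-type libraries 1, 2 and 3. It was 0.231, 0.254 and 0.259 in overexpression libraries 2, 3 and 4. The sum was thus larger for the laminin-binding chains in each wild-type library and larger for the leukocyte chains in each overexpression library. That change of order rests on Itgb2, at 146.8 to 199.8 FPKM with FOXP1 overexpression. Without Itgb2 the laminin-binding sum was the larger in each overexpression library too. With Itgal added, the leukocyte sum was already the larger in wild-type library 3. The mean log2 ratio differed by -2.49 (WT 0.476 ± 0.501, FOXP1 overexpression -2.01 ± 0.0876, SD, n = 3 each). No p is given for it, because the genes were chosen with results of these data known.

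Dividing Itga3 and Itga6 by Krt18 and the leukocyte chains by Ptprc within each library gave smaller differences between the groups, in part by construction. Krt18 is itself listed as lower and Ptprc as higher, and both were chosen for this after their values had been seen. Krt18 is 1 of 3 listed genes on a list of 22 epithelial markers, and another of them, Epcam, an adhesion protein of epithelia, rose from 1.20 to 1.33 FPKM in wild type to 3.30 to 8.97 FPKM with FOXP1 overexpression. The ratio of Itga3 to Krt18 in FPKM was 0.0910, 0.117 and 0.1001 in wild-type libraries 1, 2 and 3, compared with 0.117, 0.0779 and 0.117 in overexpression libraries 2, 3 and 4. That of Itga6 to Krt18 was 0.197, 0.211 and 0.203 against 0.263, 0.172 and 0.262, and in both genes the groups overlapped. The mean log2 ratio of Itga3 to Krt18 was -3.29 in either group, while that of Itga6 was -2.30 and -2.13. Divided by Epcam in place of Krt18, the difference in mean log2 ratio was -3.33 for Itga3 and -3.16 for Itga6, with no overlap of the groups, so the ratio depends on the marker chosen.

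The ratio of Itgb2 to Ptprc was 2.21, 2.32 and 2.33 in wild-type libraries 1, 2 and 3, compared with 2.33, 2.53 and 2.78 in overexpression libraries 2, 3 and 4. The groups only just failed to overlap, with a log2 difference of 0.15. That of Itgb7 to Ptprc was 0.270, 0.337 and 0.268 against 0.278, 0.270 and 0.289, and these overlapped. Itga4 behaved differently between libraries. Its ratio to Ptprc was 0.135, 0.130 and 0.129 in wild type and 0.120 in overexpression library 3, but 0.252 and 0.223 in overexpression libraries 2 and 4. Itgal did so to a lesser degree, with ratios of 0.495, 0.518 and 0.418 in wild type, 0.491 in overexpression library 3 and 0.690 and 0.741 in libraries 2 and 4. The ratio of Itgb8 to Ptprc was 0.00492, 0.00229 and 0.00383 in wild-type libraries 1, 2 and 3, compared with 0.00726, 0.00471 and 0.00754 in overexpression libraries 2, 3 and 4. The groups overlapped, with a log2 difference of 0.86.

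**Figure D3:**
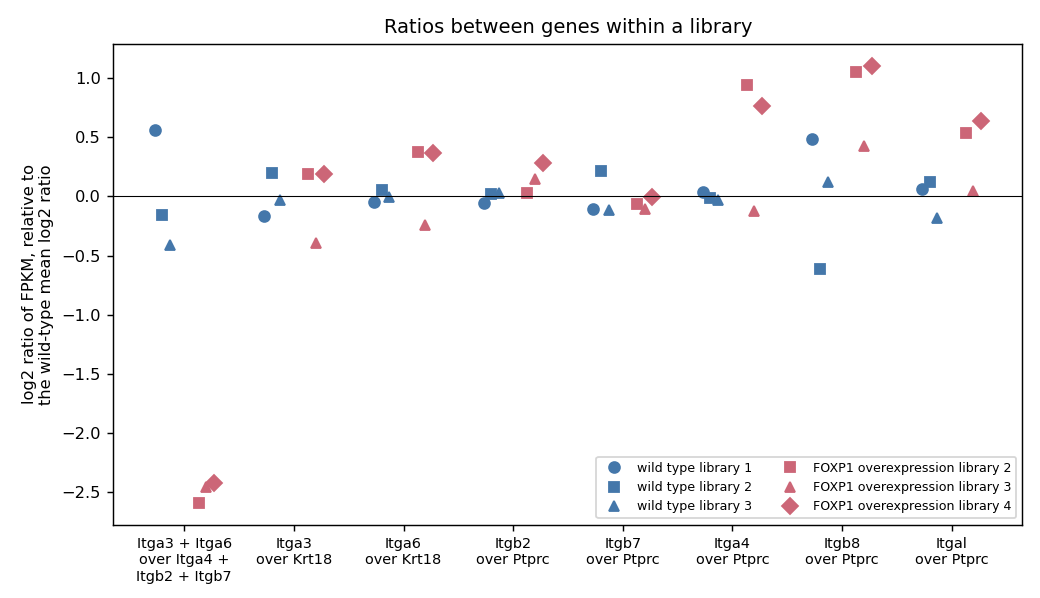
Ratios of FPKM between genes within a library, on a log2 scale and relative to the wild-type mean, with wild type in blue, FOXP1 overexpression in red and a marker for each library number. The ratio of laminin-binding to leukocyte chains lay far lower in the 3 overexpression libraries, by 2.49 on average, whereas the ratios to Krt18 and Ptprc differed by -0.06 (Itgb7) to 0.86 (Itgb8) on average. Itga4, Itgb8 and Itgal over Ptprc were higher in overexpression libraries 2 and 4 than in library 3.

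The B and plasma cell markers did not all follow the order of libraries seen for Itga4. The summed FPKM of the 9 listed genes of that list of 10 was 242, 224 and 303 in wild-type libraries 1, 2 and 3, compared with 4040, 358 and 1380 in overexpression libraries 2, 3 and 4. Most of that sum came from Jchain, the joining chain of secreted antibodies, which read 2997 FPKM in overexpression library 2, 213 in library 3 and 1084 in library 4, and 146 to 218 in wild type. The secretory protein gene Mzb1 read 752, 36.2 and 186 FPKM in overexpression libraries 2, 3 and 4. Without these 2 genes, set aside after their values had been seen, the other 7 summed to 286, 108 and 114 FPKM there, so that library 4 stood near library 3. Of the 9 markers, 5 were lowest of the overexpression libraries in library 3 (Cd79a, Cd79b, Jchain, Mzb1 and Tnfrsf17) and 4 in library 4, Cd22 among them. The 11 listed of 12 T cell markers summed to 55.5 to 99.1 FPKM in wild type and to 257, 257 and 292 FPKM in overexpression libraries 2, 3 and 4, and so did not separate library 3. None of the listed markers of either list was at 0 in any wild-type library. The part of these markers in the result for Itga4 was not tested.

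Overexpression library 3 was the lowest of its group for each of the 6 genes, those that fell and those that rose. Over all listed genes it was the lowest of its group in 45.6%, and over those listed as lower in 18.0%. In wild type, library 1 was the lowest for Itga4, Itgb2 and Itgb7, as it was for 62.9% of all genes listed as higher.

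Of 27 integrin genes searched for, 7 are listed, the 6 genes and Itgal. Among the 20 that are not listed are the broadly expressed partner Itgb1, the hemidesmosome chain Itgb4, the Itgb8 partner Itgav, the Itgb7 partner Itgae and the myeloid chains Itgam and Itgax. Their levels were not analysed here. The listed integrin genes are 22.2% of 18 alpha chains and 33.3% of 9 beta chains. Of all genes tested by the authors, 9.59% are listed as higher and 1.38% as lower. The 6 genes were chosen with results known, so these shares are given as a description.

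Of the 11 laminin chains searched for, Lama2, the alpha chain of the laminin of muscle and nerve, rose from 0.679 ± 0.141 to 1.92 ± 0.718 FPKM (SD, n = 3 each, limma adjusted p of 0.0090). Of 15 ligands of the leukocyte subunits, 4 were listed, all as higher (26.7% of the list, against 9.59% of all genes tested by the authors). Of these 3 passed limma, the exception being the fibrinogen gene Fgg. The others were Icam1, the ligand of LFA-1, at 15.7 ± 3.58 and 39.4 ± 9.83 FPKM, and Vcam1, the ligand of VLA-4, at 32.5 ± 11.5 and 82.1 ± 15.1 FPKM. The complement gene C3, whose fragment binds Itgb2 receptors, rose from 123 ± 38.8 to 420.4 ± 110.7 FPKM. The adjusted p of these 3 by limma was 0.0038, 0.0041 and 0.0031. Of 10 genes on the latent TGF-beta and Itgb8 ligand list, 1 was listed, the matrix ligand Vtn, which rose from 1.49 ± 0.373 to 3.90 ± 1.64 FPKM (limma adjusted p of 0.016). None of the TGF-beta genes is listed.

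Of 9 hemidesmosome and tetraspanin partners of laminin receptors, 1 was listed. That is 11.1% of the list, near the 9.59% of all genes tested that are listed as higher. The tetraspanin gene Cd81 rose from 31.9 ± 1.31 to 73.0 ± 10.9 FPKM (SD, n = 3 each, limma adjusted p of 0.0031), opposite to Itga3 and Itga6. Of 29 genes of talins, kindlins and other cytoplasmic adhesion proteins, 2 were listed (6.9% of the list). Both are listed as lower, as are 1.38% of all genes tested by the authors. Of the 2, the actin crosslinker Flnc fell from 39.95 ± 6.15 to 16.9 ± 2.83 FPKM (SD, n = 3 each, limma adjusted p of 0.0032). Both talins and the kindlins Fermt1 and Fermt2 are not listed.

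Of 19 genes on a list for leukocyte integrin activation, 6 are listed, all as higher. That is 31.6% of the list, against 9.59% of all genes tested by the authors. The other 13 were not analysed here. The list does not separate genes that switch integrins on from genes that restrain them. The 6 listed genes passed limma. Their log2 folds in the authors' deposited table had a median of 1.32 against 1.46 over all genes listed as higher. Skap1, an adaptor that couples the T cell receptor to LFA-1, read 1.96, 2.71 and 2.49 FPKM in wild-type libraries 1, 2 and 3, compared with 7.77, 7.67 and 7.54 FPKM in overexpression libraries 2, 3 and 4 (limma adjusted p of 0.0031). Rasgrp1, an exchange factor of lymphocytes, rose from 2.67 ± 0.654 to 7.05 ± 1.18 FPKM, and Parvg, the parvin of blood cells, from 6.58 ± 1.92 to 17.1 ± 2.60 FPKM (limma adjusted p of 0.0035 for both). Of 11 homing receptors, 4 are listed, and these rose (36.4% of the list, against the same 9.59%). Selplg, the selectin ligand PSGL-1, stood at 35.7 ± 6.42 and 76.3 ± 13.3 FPKM. The chemokine receptor genes Cxcr3 and Cxcr4 stood at 19.4 and 17.7 FPKM in overexpression library 3 but 50.5 and 28.0 in library 4 and 56.7 and 49.1 in library 2 (limma adjusted p of 0.0057 and 0.0069). Within their group both were lowest in library 3, as Itga4 was.

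**Figure D4:**
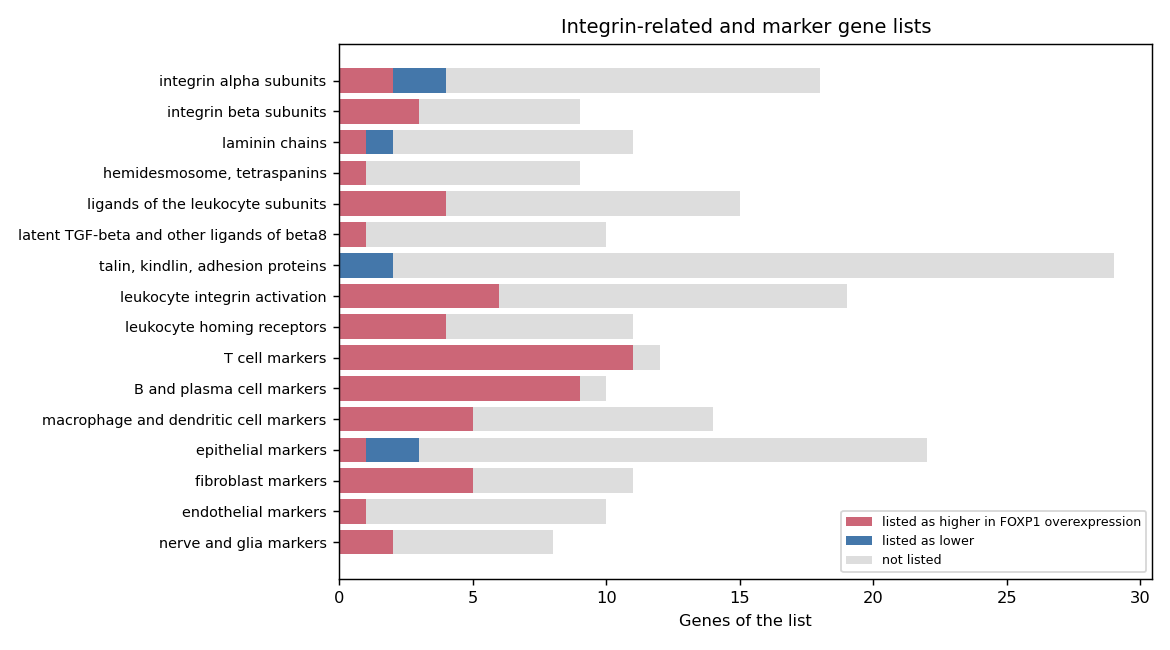
Number of genes of each integrin-related and marker list that the authors' table lists as higher (red) or lower (blue) with FOXP1 overexpression, or does not list (grey). The T cell list has 11 of 12 genes listed as higher and the B and plasma cell list 9 of 10, while 2 of the 29 talin, kindlin and adhesion protein genes are listed, both as lower. Of all genes tested by the authors, 9.59% are listed as higher and 1.38% as lower.

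Markers of other cells moved as well. Of 14 macrophage and dendritic cell markers 5 rose (35.7% of the list, against 9.59% of all genes tested by the authors). Their summed FPKM stood at 1050 to 1650 in wild type and 5470 to 7590 with FOXP1 overexpression. Most of that sum came from Lyz2, at 947 to 1484 FPKM in wild type and 5093 to 7344 with FOXP1 overexpression. Among the 9 markers of that list that are not listed are Csf1r, Adgre1 and C1qa. Of 11 fibroblast markers 5 rose (45.5% of the list, at 168 to 193 and 453 to 743 summed FPKM). Of 22 epithelial markers 3 are listed (13.6% of the list), Krt18 and Elf3 as lower and Epcam as higher. Over all genes tested by the authors, 1.38% are listed as lower. Of 10 endothelial markers 1 was listed, Prox1, at a summed level of 0 to 0.0389 FPKM in wild type and 0.0799 to 0.339 with FOXP1 overexpression. Of 8 nerve and glia markers 2 were listed, at 0.434 to 0.664 and 1.18 to 2.33 summed FPKM. The part of these markers in the integrin results was not tested.

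In the annotation the table carries, 18 listed genes belong to leukocyte transendothelial migration, the passage of leukocytes through vessel walls, and all 18 are higher, Itga4, Itgb2 and Itgal included. Of 17 listed genes of ECM-receptor interaction, 13 are higher and 4 lower, Itga3 and Itga6 among the latter. Of 26 listed genes annotated with integrin binding, 21 are higher and 5 lower. Over all listed genes 1505 of 1722 are higher.

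For each of the 6 genes, the most alike genes were sought by Pearson's r of log2(FPKM + 1) over the 6 libraries among 706 listed genes with a mean of at least 5 FPKM in either group. The r of all of them contains the difference between the groups, for which they were listed, and it is given as a description. The apelin gene Apln was the closest to both Itga3 (r = 0.997) and Itga6 (r = 0.992). Next to Itga3 stood the lipid transporter gene Mfsd2a (0.993) and Tnfrsf23 (0.992), and next to Itga6 the amino acid transporter gene Slc7a5 (0.990) and the monocarboxylate transporter gene Slc16a1 (0.990). Itgb2 was closest to the cathepsin gene Ctsc (0.999), Rgs14 (0.998) and Il18bp (0.998). Itgb7 was closest to Zc3h12d (0.996), the peptide transporter gene Tap1 (0.995) and the lymphoid factor gene Ikzf1 (0.994). Itga4 was closest to the calcium pump gene Atp2a3 (0.998), Stac2 (0.997) and Glcci1 (0.996), and Itgb8 to Ccpg1 (0.997), Ssbp3 (0.994) and Pon3 (0.993).

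Promoter sequence from RefSeq (GRCm38.p6) was matched by gene ID and symbol for 4 of the 6 genes, Itga3, Itga4, Itgb7 and Itgb8. The 250 bases before the start are shown for the laminin-binding alpha chain that fell and the leukocyte alpha chain that rose, 5′ to 3′ on the gene's strand. Capitals mark GGGCGG on either strand, a GC box. Itga3 lies at chr11:95076715-95076964 on the minus strand and Itga4 at chr2:79255176-79255425 on the plus strand.
Itga3: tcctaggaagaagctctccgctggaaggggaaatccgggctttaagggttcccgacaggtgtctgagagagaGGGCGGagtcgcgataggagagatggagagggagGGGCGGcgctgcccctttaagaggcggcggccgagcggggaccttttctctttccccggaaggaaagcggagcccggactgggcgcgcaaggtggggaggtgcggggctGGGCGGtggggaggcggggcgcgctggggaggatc
Itga4: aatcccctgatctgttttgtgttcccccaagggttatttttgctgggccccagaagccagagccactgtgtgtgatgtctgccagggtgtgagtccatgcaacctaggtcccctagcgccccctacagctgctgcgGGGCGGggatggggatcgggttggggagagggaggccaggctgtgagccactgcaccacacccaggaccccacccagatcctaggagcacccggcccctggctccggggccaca
The Itga3 window holds 3 GC boxes and the Itga4 window 1, a motif present in 32.7% of all 32851 promoter windows of that length. Neither of the windows holds the forkhead motif TGTTTAC, nor its variant TATTTAT, nor the further variant TATTTGT, on either strand, nor do those of Itgb7, Itgb8 or the second start of Itga3. These are in 3.17%, 5.17% and 3.29% of all windows. The absence says only that these letters are not in these windows.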

How the data were processed

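Polyadenylated RNA of 3 wild-type and 3 FOXP1-overexpressing U14 libraries was sequenced as paired ends. Per the submitters' processing notes, Trimmomatic, HISAT2 and DESeq were used, with no versions, and the build is named as hg19 although the organism and gene symbols are those of mouse. How reads were counted, on which annotation and with which strand setting is not given in the sources used here. FPKM values per library were made and deposited by the authors under a header that says only expression, so their unit was settled from the numbers. The authors also deposited a mean normalised signal per group, a fold ratio, a log2 fold, and a p-value and q-value, per the file headers from DESeq2.

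Counts were rebuilt from the FPKM and the authors' group means, and 100.0% of 10332 values came out whole within 0.01 fragments. For the main result, limma 3.58.1 (R 4.3.3) with a trend was fitted to log2(FPKM + 1) of all 1722 listed genes, with Benjamini-Hochberg adjustment over these preselected genes, because unlisted genes were not analysed here. Alternatives were a pseudocount of 0.1, a filter of 1 FPKM, no trend, median centring, a replicate block, voom on the rebuilt counts, and leaving out each library. Voom adjusted over 15689 genes or without each library was chosen after seeing the data. The scripts were tested on simulated data. Replicate libraries differed beyond counting error (chi-square divided by its degrees of freedom at least 14.7).

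The integrin genes and the 16 lists were chosen with earlier results of these data known. Genes are named by a rule: the 6 genes, other listed integrins, up to 3 listed genes per list by the authors' q, and 3 genes per integrin by correlation. Krt18, Epcam and Ptprc as divisors, Jchain and the other B and plasma cell markers, Fgg and genes named as unlisted were added after their values or their absence had been seen. Some genes that the rule would name are not reported here.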

Additional observations from a re-analysis of the deposited data

How the results depend on the processing

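The 6 integrin genes were called by limma on all 6 libraries with a pseudocount of 1 or 0.1, without a trend, in voom, and without any single library in either method, and in voom with adjustment over all 15689 genes, where the adjusted p lay between 0.026 and 0.046. That last adjustment left 910 of the listed genes called, against 1629 in limma and 1647 in voom with adjustment over the listed genes. The filter of 1 FPKM removed Itgb8 and left 5 called of 5 tested. After median centring 3 of the 6 and 538 listed genes were called, 100 higher and 438 lower, against 1418 higher and 211 lower before. Itga3 and Itga6 stayed called, while Itga4 (0.75), Itgb2 (0.59) and Itgb7 (0.30) were no longer past the threshold. Itgb8 turned to -0.42 and was called in that direction. Its sign there follows from the scale, since its 0.39 before centring was below the 0.81 subtracted. That centring takes the median of genes selected for a difference as unchanged. With the replicate number as a block, 3 of the 6 and 713 listed genes were called by limma. The adjusted p of Itga3, Itga6 and Itgb2 was 0.0474, 0.0474 and 0.0476, just under the threshold. That of Itga4, Itgb7 and Itgb8 was 0.067, 0.054 and 0.077. The libraries share only the numbers 2 and 3, and the deviations of same-numbered libraries correlated at 0.021 and 0.076, which gave no sign of pairing by number. Any other pairing was not checked, and the block costs degrees of freedom. Leaving out one library moved the number of listed genes called over 1373 to 1653 in limma and 1395 to 1661 in voom. The difference in log2 ratio of laminin-binding to leukocyte chains was -2.69 to -2.21 without single libraries, -2.42 as a mean of log2(FPKM + 1), and -2.50 without Itgb2. Itgb8 rests on 10 to 74 fragments per library. Intervals and counts cover these libraries only.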
